A study of Homo sapiens with 12 samples.

Results

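YAP1 and WWTR1, which encodes TAZ, are transcriptional coactivators that cannot bind DNA themselves and act through the TEAD proteins. The Hippo kinases, which end in LATS1 and LATS2, phosphorylate YAP and TAZ and keep them in the cytoplasm, where they are held or degraded. When the kinases are off, as on a stiff matrix or at low cell density, the coactivators enter the nucleus and raise genes of growth, adhesion and matrix, and some of these genes encode restraints on YAP itself. In melanoma, high YAP and TEAD activity is known from dedifferentiated, invasive cells with little of the lineage factor MITF.

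The genes described here were 10 given symbols, namely YAP1, WWTR1 and TEAD1 as the factors and CTGF, CYR61, ANKRD1, CRIM1, AMOTL2, LATS2 and AJUBA as target genes. Of these, 9 were among the 12616 listed genes. ANKRD1 had no row and was not analysed here. CTGF and CYR61 are now named CCN2 and CCN1, and the older symbols are those of the table. The list therefore holds 3 factors beside its targets, and the activity of YAP protein was not measured. These symbols and the further gene lists below were chosen with earlier results of these data known. Counts of called genes beside the share of all genes are thus a description and not an independent test.

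The libraries came from MeWo and SkMel28, human cutaneous melanoma cell lines. Both had been given a short hairpin RNA against MITF that is switched on by doxycycline (Dox). Cells of the 4 groups were kept for 8 days in medium that was renewed every other day. The groups were MeWo control and SkMel28 control (0 µg/ml Dox) and MeWo Dox and SkMel28 Dox (1 µg/ml), each with 3 libraries labelled as replicates 1 to 3. The hairpin was present in all 4 groups, and none of them combined Dox with a line lacking it, so that a change with Dox is that of the drug and the hairpin together. The labels give EMEM as the medium of MeWo and RPMI as that of SkMel28, and line and medium cannot be told apart if these labels hold. Nothing says that the replicates were separate cultures, and p-values measure the spread between these libraries.

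Values are reads per 1000000 of effective library size from 3′ end sequencing. They are given per library in the order of replicates 1, 2 and 3, and as mean ± SD (n = 3). Each transcript gives reads at its 3′ end, and the tests compared levels between groups and not between genes. Log2 changes refer to (value + 1), which understates the change of low genes, with the standard error (SE) and adjusted p from limma over all 12616 genes. Genes with an adjusted p under 0.05 are said to be called. In bulk RNA a smaller number of cells of a kind and less RNA per cell cannot be told apart.

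MITF, the target of the hairpin, stood at 657, 663 and 708 in MeWo control and at 451, 354 and 371 in MeWo Dox. In SkMel28 it went from 861, 739 and 792 to 575, 578 and 552. The mean fell by 42.0% in MeWo and by 28.7% in SkMel28, without overlap between Dox and control libraries in either line (adjusted p = 6.49e-05 and 0.00705). Libraries held 2568187 to 3714608 reads, and 1 read was worth a value of 0.278 to 0.389. Correlations between replicates across genes were 0.979 to 0.985 in 3 groups and 0.960 to 0.976 in MeWo Dox, where replicate 1 had the lower coefficients. All 7 melanocyte lineage markers were listed, and their summed value was 12372 to 12614 in MeWo control, 6335 to 7963 in MeWo Dox, while in SkMel28 it ran from 10751 to 11983 without and from 7082 to 7449 with Dox. Of 7 fibroblast markers only DCN and LUM were listed, with sums of 41.5 to 47.8 in MeWo control and 9.85 to 19.2 in MeWo Dox, and of 10.9 to 13.3 and 6.04 to 8.91 in SkMel28 control and Dox. Of 5 keratinocyte markers KRT10 was listed, and none of 4 endothelial or 3 blood markers was. The lineage markers did not move together: in MeWo PMEL, MLANA, TYRP1, TYR and SOX10 were called lower and DCT (0.91) and S100B (1.96) higher, and in SkMel28 PMEL and MLANA were called lower and S100B higher (1.14). PMEL, the most abundant of them, had a mean of 7450 in MeWo control and 3261 in MeWo Dox. In MeWo Dox replicate 1, TYR stood at 389, among the controls (346 to 398), and SOX10 at 312, above the controls (289 to 296). The fibroblast sums followed LUM, which was called lower in MeWo (−1.78), while DCN was not called there (0.40) and had no read in SkMel28. The part of these markers in the values below was not tested.

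TEAD proteins bind the element GGAATG, and the sequence just before the start of transcription was read for it. RefSeq windows (GRCh38.p14) of 250 bases before the start were found for 7 of the 10 symbols, 10 windows in all, and TEAD1, CYR61 and CRIM1 had none. The element, searched on both strands, was present in 5 of these 10 windows, each of another symbol, and in 11.9% of 34788 such windows of all genes. More than 1 copy was present in the windows of CTGF and ANKRD1 and in 0.946% of all windows. The windows of CTGF, which has 3 copies, of AMOTL2, the gene with the largest change in SkMel28, and of YAP1 itself are shown 5′ to 3′ on the strand of the gene, with the element or its reverse complement CATTCC in capitals.
CTGF (chr6:131951373-131951622, − strand): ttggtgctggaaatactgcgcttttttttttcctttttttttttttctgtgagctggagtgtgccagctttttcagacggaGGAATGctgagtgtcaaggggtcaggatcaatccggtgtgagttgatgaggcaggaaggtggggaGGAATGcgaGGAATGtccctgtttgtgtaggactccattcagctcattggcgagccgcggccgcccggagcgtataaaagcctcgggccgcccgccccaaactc
AMOTL2, second start (chr3:134374448-134374697, − strand): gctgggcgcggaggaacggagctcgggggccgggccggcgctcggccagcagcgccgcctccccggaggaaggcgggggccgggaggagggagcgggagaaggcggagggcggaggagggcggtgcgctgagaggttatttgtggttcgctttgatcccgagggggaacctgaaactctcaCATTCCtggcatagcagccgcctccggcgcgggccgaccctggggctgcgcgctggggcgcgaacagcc
YAP1 (chr11:102110197-102110446, + strand): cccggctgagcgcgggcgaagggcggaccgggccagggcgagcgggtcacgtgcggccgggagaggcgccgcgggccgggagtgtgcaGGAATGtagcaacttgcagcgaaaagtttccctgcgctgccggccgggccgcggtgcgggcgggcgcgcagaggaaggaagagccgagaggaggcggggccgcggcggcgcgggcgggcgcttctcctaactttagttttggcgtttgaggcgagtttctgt

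In CTGF the copies lay at −169 to −164, −104 to −99 and −95 to −90 from the start, and the last of them are 3 bases apart. The AMOTL2 copy, on the opposite strand, lay at −69 to −64 before the second of 2 annotated starts, inside the gene, and 115 bases of that window are exonic in other AMOTL2 transcripts. The YAP1 copy lay at −162 to −157, and the palindromic E-box CACGTG, a letter sequence that MITF can bind, began at −203 in the same window. That E-box was in 6.31% of all windows. WWTR1 held the other E-box searched, CATGTG, read on both strands, at −45 to −40 of its first window, against 9.44% of all windows. AJUBA had a copy of GGAATG at −59 to −54 of its second window, which lies wholly in AJUBA exons of GENCODE. The LATS2 window held none of these letter sequences, nor the AP-1 element TGANTCA, which was found in ANKRD1 alone among these symbols and in 6.59% of all windows. Such matches describe letters and not bound sites.

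**Figure D1:**
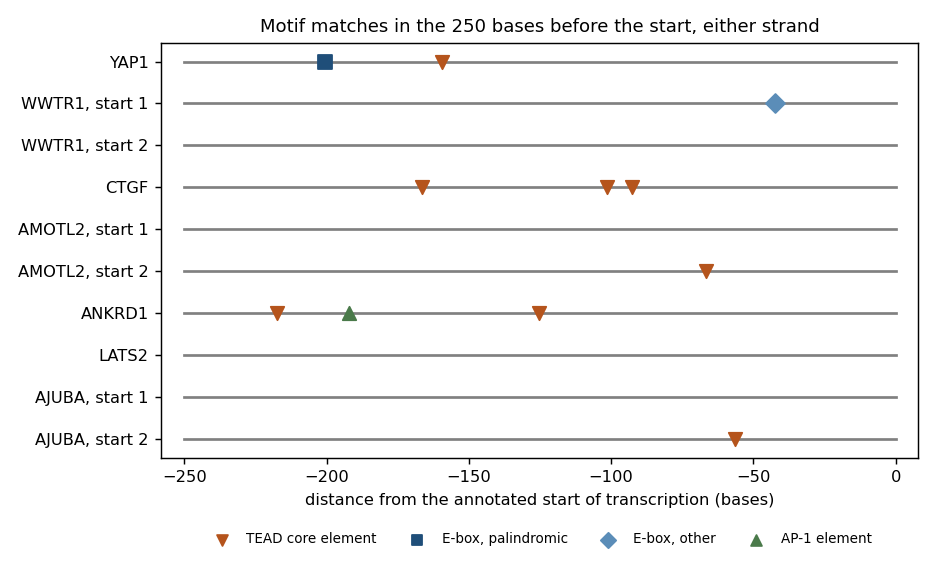
Positions of 4 short elements (markers, on either strand) in the 250 bases before each annotated start (grey lines, horizontal axis in bases from the start) for the 7 symbols with a RefSeq window. CTGF carries 3 copies of GGAATG, the TEAD core element, and ANKRD1 carries 2.

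With Dox, AMOTL2 and CRIM1 rose in SkMel28, each by over 4-fold, while no member of the list was called in MeWo. The counts were 2 of 9 called in SkMel28, both higher, where 10.9% of all genes were called, 5.88% higher and 5.04% lower. In MeWo the count was 0 of 9, where 16.7% of all genes were called, 8.58% higher and 8.12% lower. Without MeWo Dox replicate 1, the library with the lower correlations, it was 3 of 9, namely LATS2, TEAD1 and AMOTL2, all lower. That fit called 3913 of 12616 genes in place of 2107, so that 3 of 9 called is near the background in either direction. Called lower were 1891 of the 12616 genes, a smaller share than that of the members. LATS2 in MeWo, not called in the main fit of all libraries, was called by edgeR on the recovered reads and not by DESeq2. In SkMel28 the fitted change was above 0 for all 9 genes, with a median of 0.51 against 0.0029 over all genes, although with scaling to the spike-ins WWTR1 and TEAD1 fell just under 0. In MeWo 4 of 9 were above 0, and the median was −0.06 against 0 over all genes. The difference between the lines in the change with Dox, tested as an interaction, was called for AMOTL2, LATS2 and CRIM1, all lower in MeWo than in SkMel28, that is for 3 of 9 genes, where 7.09% of all genes were called, 3.71% higher and 3.38% lower. Called in both lines were 0 of 9 members and 4.08% of all genes. The median interaction of the 9 genes was −0.58 against −0.021 over all genes.

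No overlap between the Dox and control libraries of a line was seen in SkMel28 for 4 of 9 genes, AMOTL2, LATS2, AJUBA and CRIM1, which were all higher with Dox, as were 16.1% of all genes. In MeWo CTGF was higher and LATS2 lower without overlap, against 14.1% and 14.7% of all genes.

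**Figure D2:**
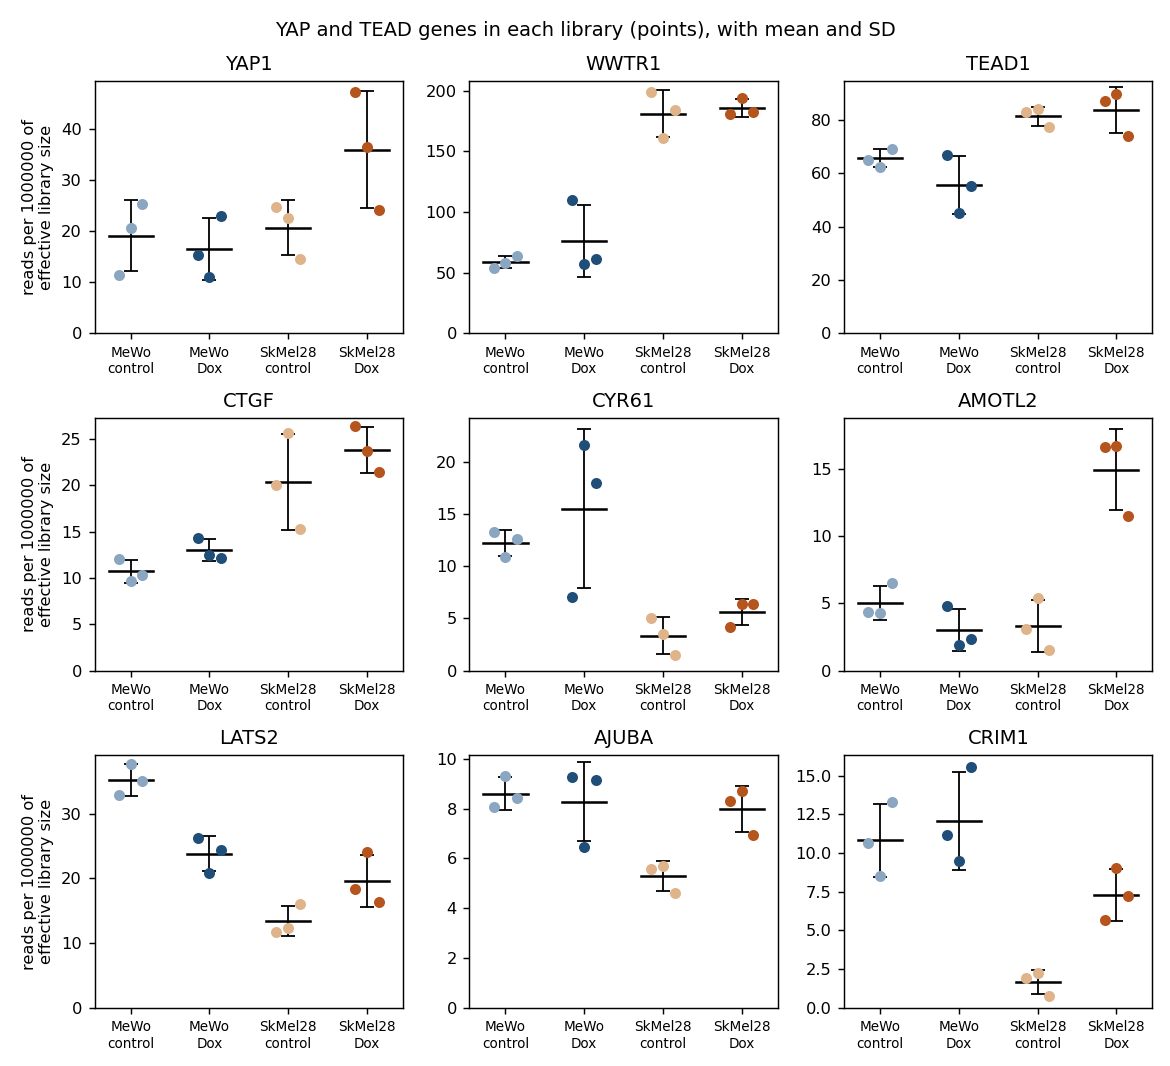
Each panel plots 1 gene in reads per 1000000 of effective library size (vertical axis, from 0) for the 12 libraries (points), with the mean (bar) and SD (whiskers) of the 3 libraries of a group. AMOTL2 and CRIM1 rise in SkMel28 Dox, LATS2, called in neither line, has its MeWo Dox libraries under and its SkMel28 Dox libraries over the controls, and 1 MeWo Dox library holds WWTR1 at 110.1.

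YAP1 (chromosome 11, 102110447 to 102233424, + strand, hg38), the coactivator that gives the pathway its name, varied widely between replicates. It stood at 11.5, 20.6 and 25.3 in MeWo control and at 15.3, 11.0 and 23.0 in MeWo Dox. In SkMel28 it stood at 24.8, 22.5 and 14.6 in control and at 47.2, 36.4 and 24.2 in Dox. The MeWo groups overlapped throughout, and in SkMel28 the lowest Dox library lay just under the highest control library. The log2 change was −0.20 in MeWo (SE 0.31, adjusted p = 0.719) and 0.76 in SkMel28 (SE 0.31, adjusted p = 0.138), where the mean went from 20.6 ± 5.37 to 35.9 ± 11.5. The interaction of −0.95 (95% confidence interval −1.87 to −0.03) was not called (adjusted p = 0.184).

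WWTR1 (chromosome 3, 149517235 to 149736714, − strand) encodes TAZ, the paralogue of YAP. Without Dox its level was 199, 161 and 184 in SkMel28 against 53.8, 58.3 and 63.8 in MeWo, a 3.09-fold higher mean and a log2 difference of 1.61 (SE 0.18, adjusted p = 1.24e-06). With Dox SkMel28 gave 180.5, 194 and 182, which is within the range of its controls. MeWo Dox gave 110.1, 57.6 and 61.0, so that replicate 1 stood apart and the others lay among the controls. The change was 0.31 in MeWo (SE 0.18, adjusted p = 0.268) and 0.02 without MeWo Dox replicate 1, and it was 0.04 in SkMel28 (SE 0.18, adjusted p = 0.935).

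TEAD1 (chromosome 11, 12674421 to 12944737, + strand) encodes a TEAD factor, which carries YAP or TAZ to DNA. It stood at 65.1, 62.6 and 69.3 in MeWo control and at 66.7, 45.1 and 55.2 in MeWo Dox. In SkMel28 the values were 83.0, 84.1 and 77.4 in control and 87.3, 89.9 and 74.0 in Dox. Control and Dox libraries overlapped in both lines, and all SkMel28 controls lay above all MeWo controls. The change was −0.25 in MeWo (SE 0.14, adjusted p = 0.252) and 0.03 in SkMel28 (SE 0.14, adjusted p = 0.923). Without MeWo Dox replicate 1 the MeWo change was −0.39 and was called (adjusted p = 0.0285).

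CTGF (chromosome 6, 131948176 to 131951372, − strand), a secreted matrix protein and a standard readout of YAP, moved little with Dox. It stood at 12.1, 9.71 and 10.4 in MeWo control and at 14.4, 12.5 and 12.2 in MeWo Dox, higher in every Dox library. SkMel28 gave 20.0, 25.7 and 15.3 in control and 26.4, 23.7 and 21.5 in Dox, with overlap. The changes of 0.26 in MeWo (SE 0.20, adjusted p = 0.417) and 0.24 in SkMel28 (SE 0.20, adjusted p = 0.523) were not called, and their intervals reached up to 0.69 and 0.67. CTGF overlaps the listed gene LINC01013 on the other strand, and the strand used for counting is not stated.

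CYR61 (chromosome 1, 85580761 to 85584589, + strand) encodes another secreted matrix protein of the same family. Its MeWo values were 13.2, 10.9 and 12.6 in control and 7.02, 21.6 and 18.0 in Dox, so that the Dox libraries lay on either side of the controls. In SkMel28 it was low, at 5.01, 3.49 and 1.53 in control and 4.16, 6.35 and 6.35 in Dox, which is 4 to 21 reads per library. The change was 0.19 in MeWo (SE 0.36, adjusted p = 0.772) and 0.68 in SkMel28 (SE 0.36, adjusted p = 0.272). The MeWo interval of −0.57 to 0.95 held changes of either sign. Without MeWo Dox replicate 1 the MeWo change was 0.65, and without replicate 2 it was −0.10, and neither was called.

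CRIM1 (chromosome 2, 36355778 to 36551135, + strand) encodes a membrane protein with cysteine-rich repeats that binds bone morphogenetic proteins. In SkMel28 it stood at 1.95, 2.22 and 0.766 in control, which is 2 to 7 reads, and at 5.64, 9.02 and 7.25 in Dox, which is 19 to 27 reads. All Dox libraries were above all controls, and the mean rose 4.44-fold from 1.65 ± 0.773 to 7.31 ± 1.69 (log2 change 1.68, SE 0.29, adjusted p = 0.000802). The call held in all 22 alternatives, with changes of 0.89 to 2.18. In MeWo it stood at 10.7, 8.55 and 13.3 in control and at 11.2, 9.48 and 15.6 in Dox. These groups overlapped, with a change of 0.14 (SE 0.29, adjusted p = 0.796). SkMel28 Dox thus came up to 7.31 where MeWo already held 10.8 without Dox.

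The CRIM1 interaction was −1.54 (SE 0.40, adjusted p = 0.0298), and stayed at −1.73 to −1.27 when single libraries were left out. It was not called at a pseudocount of 5 (−0.78, adjusted p = 0.0559), a setting that shrinks the changes of low genes, nor without MeWo control replicate 1 (−1.54) or 3 (−1.39), MeWo Dox replicate 2 (−1.39), SkMel28 control replicate 3 (−1.27) or SkMel28 Dox replicate 2 (−1.39) or 3 (−1.53). CRIM1 shares 19331 bases with FEZ2 on the other strand, and 1 of 8 annotated CRIM1 transcripts ends inside FEZ2, in none of its exons. FEZ2 stood at 58.7, 50.1 and 49.0 in SkMel28 control and 62.3, 66.5 and 58.6 in Dox, a change of 0.25 that was not called (adjusted p = 0.330).

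AMOTL2 (chromosome 3, 134355347 to 134375479, − strand) encodes a motin, which binds YAP and holds it outside the nucleus, and is itself raised by YAP. It rose in SkMel28 from 3.06, 5.39 and 1.53 in control, which is 4 to 17 reads, to 16.6, 16.7 and 11.5 in Dox, which is 38 to 56 reads. Every Dox library held more than 2 times the highest control value. The mean rose 4.49-fold, from 3.33 ± 1.94 to 14.9 ± 2.99 (log2 change 1.96, SE 0.34, adjusted p = 0.000887). In MeWo it stood at 4.32, 4.27 and 6.48 in control and at 4.79, 1.90 and 2.37 in Dox. There 2 Dox libraries lay under all controls and replicate 1 lay among them. The MeWo change was −0.63 (SE 0.34, adjusted p = 0.221), and −0.93 and called without MeWo Dox replicate 1 (adjusted p = 0.0482).

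The AMOTL2 interaction was −2.59 (SE 0.48, 95% confidence interval −3.60 to −1.58, adjusted p = 0.00353), the largest in size among the 9 genes. It was called in all 21 alternatives (−3.08 to −1.61), and the SkMel28 rise in all 22 (1.27 to 2.29). The level without Dox differed between the lines by −0.56 (adjusted p = 0.179) and was called as lower in SkMel28 without SkMel28 control replicate 2 (−0.89). The gene overlaps no other listed gene.

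LATS2 (chromosome 13, 20973036 to 21061586, − strand) encodes a kinase that inactivates YAP and TAZ and is induced by them. It stood at 32.8, 37.7 and 35.0 in MeWo control and at 26.2, 20.8 and 24.4 in MeWo Dox, lower in all 3. In SkMel28 it stood at 11.7, 12.4 and 16.1 in control and at 18.4, 24.1 and 16.3 in Dox, higher in all 3, if by a small margin at the nearest pair. Neither change was called on its own, at −0.55 in MeWo (SE 0.19, adjusted p = 0.0544) and 0.51 in SkMel28 (SE 0.19, adjusted p = 0.0953). Their difference was called, with an interaction of −1.06 (SE 0.27, adjusted p = 0.0233). The MeWo change was called with edgeR, at a pseudocount of 5, with the stricter filter on low values and without MeWo Dox replicate 1 (−0.62).

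The LATS2 interaction was lost without MeWo control replicate 2 (−1.01) or 3 (−1.06), MeWo Dox replicate 2 (−0.97), SkMel28 control replicate 1 (−0.98) or 2 (−1.01) or SkMel28 Dox replicate 2 (−0.91). Its adjusted p was 0.0507 to 0.0756 in these fits. Scaling to the spike-ins put the median interaction of all genes at 0.30. This scaling took both the LATS2 and the CRIM1 interaction out of the called range, at −0.70 and −1.21. Relative to that median they were −1.0 and −1.51.

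AJUBA (chromosome 14, 22971177 to 22982551, − strand) encodes a LIM protein that binds LATS kinases and restrains them. It stood at 8.06, 9.32 and 8.42 in MeWo control and at 9.26, 6.44 and 9.14 in MeWo Dox, with overlap. In SkMel28 it stood at 5.57, 5.71 and 4.60 in control and at 8.31, 8.69 and 6.95 in Dox, higher in every Dox library. The change was −0.06 in MeWo (SE 0.22, adjusted p = 0.893) and 0.51 in SkMel28 (SE 0.22, adjusted p = 0.166), and the interaction of −0.58 was not called (adjusted p = 0.266).

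**Figure D3:**
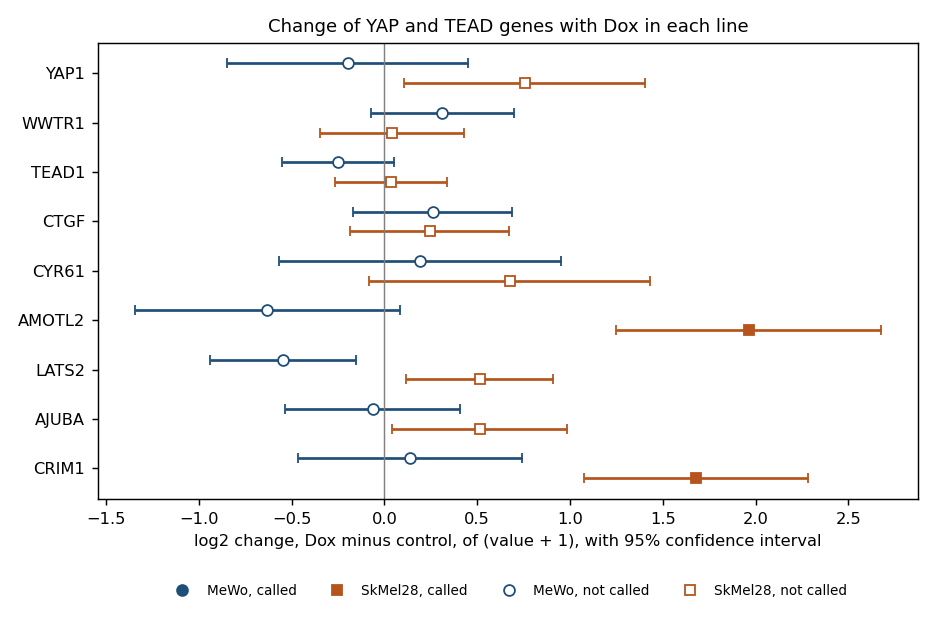
Log2 change of (value + 1) with Dox (horizontal axis) for 9 genes in MeWo (circles) and SkMel28 (squares), with 95% confidence intervals from limma and filled symbols for called changes. AMOTL2 at 1.96 and CRIM1 at 1.68 in SkMel28 are the called changes, and LATS2 lies at −0.55 in MeWo and 0.51 in SkMel28.

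Without Dox, 6 of the 9 were called between SkMel28 control and MeWo control, 2 higher in SkMel28 and 4 lower. As 51.4% of all genes were called in this contrast, 26.6% higher and 24.8% lower, the count is near the background. WWTR1 and CTGF were the higher ones, and CTGF differed by 0.84 (SE 0.20, adjusted p = 0.00220) at means of 20.4 ± 5.19 and 10.7 ± 1.23. CRIM1 was lower in SkMel28 by 2.19 on the log2 scale (log2 difference −2.19, SE 0.29, adjusted p = 5.89e-06), with a mean 6.58-fold higher in MeWo. CYR61 differed by −1.69 (SE 0.36, adjusted p = 0.000782) and LATS2 by −1.34 (SE 0.19, adjusted p = 1.25e-05). AJUBA differed by −0.61 (SE 0.22, adjusted p = 0.0297). The control libraries of the lines did not overlap for 7 of 9 genes, 3 higher in SkMel28 (WWTR1, TEAD1 and CTGF) and 4 lower (CYR61, LATS2, AJUBA and CRIM1), as was so for 31.6% and 30.5% of all genes. CTGF and CYR61, which are often read together, thus lay on opposite sides, CTGF higher in SkMel28 and CYR61 higher in MeWo.

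The AJUBA call was lost with DESeq2 (−0.67), with spike-in scaling (−0.48) and without MeWo control replicate 2 (−0.56) or 3 (−0.62) or SkMel28 control replicate 1 (−0.64) or 3 (−0.53). YAP1 did not differ detectably between the lines, at means of 20.6 and 19.1 (log2 difference 0.14, 95% confidence interval −0.51 to 0.79). TEAD1 was higher in SkMel28 by 0.31 (adjusted p = 0.0811), and was called without MeWo Dox replicate 1 or 2, whose removal left this difference at 0.31 and changed the estimate of the spread.

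A further list held 16 genes of the common YAP and TEAD signature, of which 15 were listed. Since this list was chosen with earlier results of these data known, its counts are a description. In SkMel28 7 of 15 were called, 6 higher and 1 lower, against 10.9% of all genes, and the median change was 0.37. That median is the value of AXL, which held no more than 3 reads in any SkMel28 library, as did FJX1 and TGFB2. In MeWo 3 of 15 were called, 2 higher and 1 lower, which is near the 16.7% of all genes, and the median was −0.07. IGFBP3, which encodes a secreted binder of insulin-like growth factors, fell in MeWo from 8.52 ± 1.05 to 3.10 ± 1.52 (log2 change −1.29, SE 0.26, adjusted p = 0.00219), a call lost with MeWo fitted alone. In SkMel28 it rose from 15.7 ± 2.14 to 44.9 ± 1.95 (1.47, SE 0.26, adjusted p = 0.00108), and the interaction of −2.76 was called (adjusted p = 0.000263). MYOF, which encodes the membrane repair protein myoferlin, rose in SkMel28 from 7.21 ± 1.73 to 21.9 ± 3.32 (1.49, SE 0.32, adjusted p = 0.00569) and held 1 to 6 reads per library in MeWo. The SkMel28 rise of MYOF was lost at a pseudocount of 0.1 (1.60).

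NT5E, which encodes the surface enzyme CD73, went the other way. It fell in SkMel28 from 192 ± 3.15 to 90.4 ± 5.14 (−1.08, SE 0.15, adjusted p = 0.000156) and was low in MeWo, at 4.51 ± 0.588 in control and 4.25 ± 0.454 in Dox. AXL, which encodes a receptor tyrosine kinase of invasive melanoma cells, rose in MeWo from 3.04 ± 1.02 to 9.78 ± 1.65 (1.43, SE 0.28, adjusted p = 0.00172), and lost its call at a pseudocount of 0.1 (1.68). In SkMel28 AXL had no read in the control libraries and 0, 2 and 1 reads in the Dox libraries, which is at the floor of 3 reads. ARHGEF17 rose in SkMel28 from 19.8 ± 4.04 to 33.1 ± 4.79 (0.72, SE 0.15, adjusted p = 0.00367), a call lost with scaling to the spike-ins (0.63).

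RBMS3, which encodes an RNA-binding protein, rose in both lines. It went from 7.95 ± 2.66 to 17.3 ± 1.87 in MeWo (1.07, SE 0.24, adjusted p = 0.00530) and from 7.75 ± 2.12 to 14.7 ± 1.39 in SkMel28 (0.87, SE 0.24, adjusted p = 0.0264). The SkMel28 call was lost with spike-in scaling (0.78) and without SkMel28 control replicate 1 (0.82) or 3 (0.74) or any single SkMel28 Dox library (0.80 to 0.92), and the MeWo call with MeWo fitted alone. The gene overlaps RBMS3-AS3 on the other strand. The other called genes, CCDC80 and PTPN14, were called higher in SkMel28. In MeWo all CCDC80 Dox values lay above the controls, at 4 to 6 against 1 to 4 reads, without a call (0.66, adjusted p = 0.106).

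**Figure D4:**
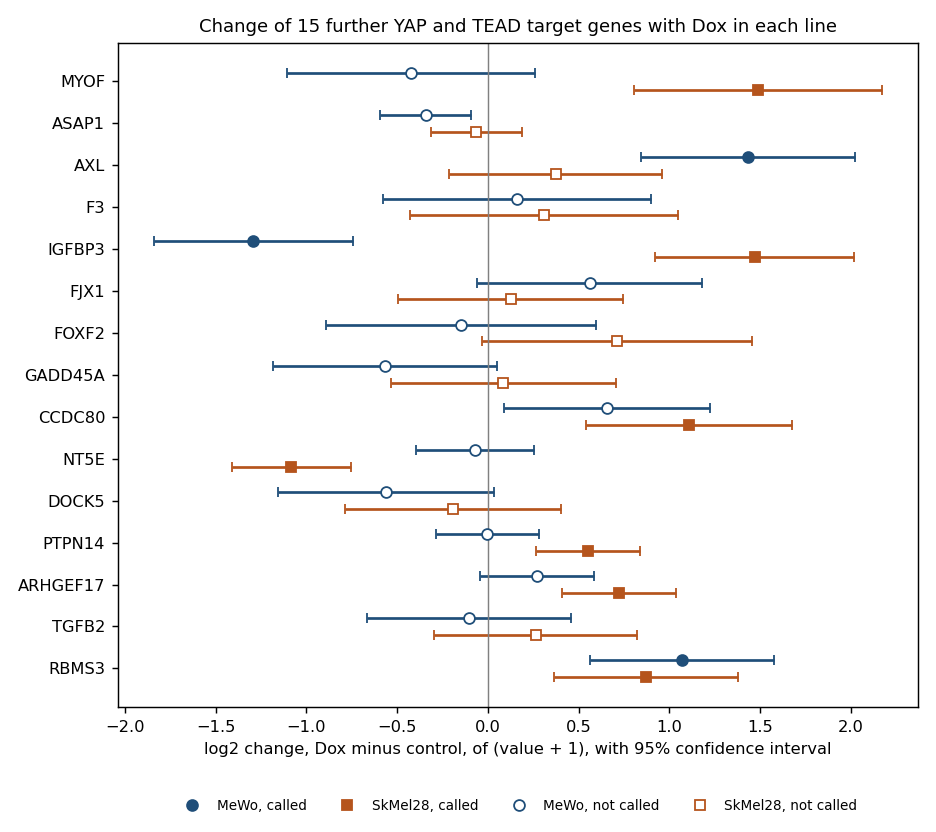
Log2 change of (value + 1) with Dox (horizontal axis) for 15 further YAP and TEAD target genes in MeWo (circles) and SkMel28 (squares), with 95% confidence intervals and filled symbols for called changes. IGFBP3 lies at −1.29 in MeWo and 1.47 in SkMel28, and NT5E lies at −1.08 in SkMel28.

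Among Hippo kinases and their regulators, 30 of 34 listed, 7 were called in MeWo, 5 higher and 2 lower, and 3 in SkMel28, all higher. Over all genes 16.7% and 10.9% were called, and the SkMel28 count is at that background. The medians were 0.15 and 0.22. Called in MeWo were FRMD6, MAP4K4, RASSF1, DLG5 and YWHAZ as higher and NF2 and TAOK3 as lower. FRMD6, a scaffold upstream of the kinases, rose in both lines, from 14.9 ± 3.50 to 38.2 ± 10.2 in MeWo (1.29, SE 0.22, adjusted p = 0.000509) and from 12.5 ± 0.829 to 29.7 ± 3.72 in SkMel28 (1.19, SE 0.22, adjusted p = 0.00165). RASSF1, another gene of this list, rose from 36.7 ± 7.77 to 67.5 ± 7.59 in MeWo (0.87, adjusted p = 0.00431). In SkMel28 RASSF1 rose from 21.9 ± 5.88 to 39.0 ± 3.68 (0.83, SE 0.19, adjusted p = 0.00864). Which of its transcripts rose was not tested. The SkMel28 call was lost without SkMel28 control replicate 2 (0.66). RASSF1 overlaps RASSF1-AS1 on the other strand.

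The kinases upstream of LATS in the list were STK3, STK4, TAOK1, TAOK2, TAOK3 and MAP4K4. MAP4K4 and TAOK3 were called in MeWo and TAOK1 in SkMel28, where 16.7% and 10.9% of all genes were called. The interactions of MAP4K4, TAOK3 and TAOK1 were not called (adjusted p = 0.149, 0.0990 and 0.123). MAP4K4 rose in MeWo from 147 ± 3.08 to 264 ± 53.7 (0.82, SE 0.14, adjusted p = 0.000552). TAOK3 fell there from 104 ± 1.20 to 67.3 ± 12.1 (−0.63, SE 0.13, adjusted p = 0.00329), a call lost with scaling to the spike-ins (−0.36) and with MeWo fitted alone. TAOK1 rose in SkMel28 from 38.8 ± 4.20 to 58.3 ± 5.42 (0.58, SE 0.15, adjusted p = 0.0223), and this was lost with spike-in scaling (0.48) and without SkMel28 control replicate 2 (0.58) or 3 (0.50) or SkMel28 Dox replicate 1 (0.56) or 2 (0.52). YWHAZ, a 14-3-3 protein of the family that retains phosphorylated YAP in the cytoplasm, rose in MeWo from 485 ± 18.0 to 775 ± 153 (0.65, SE 0.13, adjusted p = 0.00155), a call lost with MeWo fitted alone.

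Of the other TEAD genes and TEAD cofactors, 5 of 7 were listed and 1 was called in MeWo, against 16.7% of all genes, and 0 in SkMel28. VGLL4, which encodes a protein that competes with YAP for TEAD, rose there from 32.0 ± 2.05 to 51.8 ± 7.12 (0.67, SE 0.14, adjusted p = 0.00347) and stood at 37.1 ± 2.84 and 44.2 ± 2.53 in SkMel28 control and Dox. VGLL4 overlaps ATG7 on the other strand.

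The actin-linked factors SRF and MRTF share targets with YAP, and 12 of 16 genes of that list were listed. In MeWo 4 were called, MKL1 and FLNA higher and FHL2 and CALD1 lower, against 16.7% of all genes, with a median of −0.05. FHL2, a LIM cofactor, fell from 113 ± 11.5 to 62.8 ± 2.29 (−0.83, SE 0.11, adjusted p = 6.26e-05). CALD1, the actin binder caldesmon, fell from 132 ± 6.23 to 84.9 ± 8.18 (−0.63, SE 0.11, adjusted p = 0.000456), though not as called with scaling to the spike-ins (−0.36). FLNA, the actin crosslinker filamin A, rose from 230.5 ± 7.33 to 382 ± 58.3 (0.72, SE 0.12, adjusted p = 0.000552). The rise of MKL1, a coactivator of SRF, was 0.90 and was lost in 14 of 22 alternatives, among them each fit without a single library (0.71 to 1.08) other than MeWo Dox replicate 1, SkMel28 control replicate 1 and SkMel28 Dox replicate 1. In SkMel28 VCL, the adhesion protein vinculin, was called (0.49) as 1 of 12, against 10.9% of all genes, and the median of the list was 0.17. That call was lost in 10 of 22 alternatives, among them each fit without MeWo control replicate 2 or any single SkMel28 library (0.42 to 0.54). VCL overlaps AP3M1 on the other strand.

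The genes whose values followed the more abundant members most closely were found by Pearson correlation of log2(value + 1) over the 12 libraries among 8072 genes with a mean of at least 10. For WWTR1 these were DAAM2 (0.984) and TMEM80 (0.982), for TEAD1 they were ORMDL1 (0.987) and AZIN1 (0.973), and for YAP1 they were DPM1 (0.933) and CAB39 (0.909). The 12 libraries fall into 4 groups of 2 lines, and the points share these steps, so that the coefficients are a description without a test. DAAM2, for example, had means of 30.2 and 35.6 in MeWo and 87.9 and 92.6 in SkMel28, control and Dox, as WWTR1 was higher in SkMel28. DPM1 had means of 29.7, 28.1 and 29.0 in the first 3 groups and 45.5 in SkMel28 Dox, the group in which YAP1 was highest.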

How the data were processed

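RNA was measured in 12 libraries from the QuantSeq Forward kit, a method for the 3′ ends of polyadenylated RNA. The deposited values are a normalised signal, for which the authors scaled read counts with edgeR to 1000000 reads of effective library size. The submitters' processing notes name FastQC 0.11.7, cutadapt 2.8, STAR 2.5.1b, edgeR and hg38. The counting tool, annotation and strand are not given in the sources used here, and reads of overlapping genes may be split. Every listed feature reached 1 in at least 3 libraries, so low features had been removed by the authors.

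Dividing by the value of 1 read gave whole reads for 100% of the values of each library (tolerance 0.01), and from these came the read totals. The 67 spike-ins were set aside. Groups came from the labels. The test was run on log2(value + 1) by limma 3.58.1 (lmFit, eBayes with trend) in R 4.3.3 over all 12 libraries and 4 group means. P-values were two-sided and adjusted by Benjamini-Hochberg over 12616 genes per contrast. The script was tested on simulated data. The members and gene lists were chosen with earlier results of these data known.

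Members were named in every contrast. From each other list, up to 6 genes called in a Dox contrast were described by smallest adjusted p, and the rest were counted. CCDC80, PTPN14, NF2 and DLG5 were named after their values were seen. Genes most like a member were the 2 closest for each of the 3 members with the highest mean. Loci and overlaps are from GENCODE release 44, promoters from RefSeq (GRCh38.p14). Alternatives were edgeR 4.0.16 quasi-likelihood and DESeq2 1.42.0 tests on recovered reads, upper-quartile and spike-in scaling, pseudocounts of 0.1 and 5, a filter (at least 5 in 3 libraries), no trend, a replicate block, each line alone and each library left out, 23 in all. Floors of 3 reads (a value of up to 1.17) cover counting error only, since no molecular identifiers were used.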

Additional observations from a re-analysis of the deposited data

Results flagged for a closer look

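The change with Dox differed between the lines, by the interaction test of limma, for 3 of the 9 listed members, where 7.09% of all genes were called. For AMOTL2 the MeWo change minus the SkMel28 change was −2.59 (adjusted p = 0.00353), for LATS2 it was −1.06 (adjusted p = 0.0233) and for CRIM1 it was −1.54 (adjusted p = 0.0298). AMOTL2 and CRIM1 rose in SkMel28 and were not called in MeWo. LATS2 was lower with Dox in 3 of 3 MeWo libraries and higher in 3 of 3 SkMel28 libraries, with neither change called on its own. The AMOTL2 interaction was called in every alternative run, the others in 14 (LATS2) and 13 (CRIM1) of 21.

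Among the further target genes the change differed for 3 of 15, against the same 7.09%. These were IGFBP3 (−2.76, adjusted p = 0.000263), which fell in MeWo and rose in SkMel28, MYOF (−1.91, adjusted p = 0.0185) and NT5E (1.01, adjusted p = 0.0106), which fell in SkMel28. The IGFBP3 interaction was called in every alternative, NT5E lost it with DESeq2 (1.03), and MYOF lost it with edgeR (−2.52), at a pseudocount of 0.1 (−2.27) and without MeWo control replicate 2 (−1.62) or 3 (−1.80), SkMel28 control replicate 2 (−1.81) or SkMel28 Dox replicate 1 (−1.80).

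The interaction was called for 0 of 30 listed Hippo kinases and regulators and for 0 of 5 listed TEAD genes and cofactors. Among SRF and MRTF genes the change differed for 3 of 12, again against 7.09%, namely CALD1 (−0.91, adjusted p = 0.00156), FHL2 (−0.62, adjusted p = 0.0292) and VCL (−0.72, adjusted p = 0.0436). Scaling to the spike-ins ended all 3 calls (−0.54, −0.25 and −0.35). FHL2 also lost its call without MeWo control replicate 2 or 3, MeWo Dox replicate 3, SkMel28 control replicate 1 or 2 or SkMel28 Dox replicate 1 or 2 (−0.66 to −0.53), and VCL without any single library (−0.77 to −0.63) other than MeWo control replicate 3 and MeWo Dox replicate 1.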

How the results depend on the processing

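Of 36 member results (9 genes in 4 contrasts), 11 were called, none of these reversed in any alternative, and 8 were called in every alternative. The others were the LATS2 and CRIM1 interactions and the AJUBA difference between the lines. The number of members called in MeWo was 0 and became 1 with edgeR, at a pseudocount of 5 and with the stricter filter, each time LATS2. It ranged from 0 to 3 when single libraries were left out. The 3 were LATS2, TEAD1 and AMOTL2 without MeWo Dox replicate 1, where 3913 of 12616 genes were called. The number with a called interaction was 3 and became 1, AMOTL2, with scaling to the spike-ins, and ranged from 1 to 3 when single libraries were left out, with 1 without MeWo control replicate 3, MeWo Dox replicate 2 or SkMel28 Dox replicate 2. The cause was not tested.

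Results that changed sign were all uncalled. Scaling to the spike-ins put the median gene at 0.22 in MeWo, −0.079 in SkMel28, 0.30 in the interaction and 0.13 between the lines. This scaling turned YAP1 (0.059), TEAD1 (0.019) and AJUBA (0.18) in MeWo, WWTR1 (−0.060) and TEAD1 (−0.063) in SkMel28 and the TEAD1 interaction (0.082). Upper-quartile scaling (−0.010) and a pseudocount of 5 (−0.0061) turned the CTGF interaction. Without single libraries, the MeWo change ranged from −0.51 to 0.043 for YAP1, −0.10 to 0.65 for CYR61, −0.14 to 0.089 for AJUBA and −0.047 to 0.28 for CRIM1. The SkMel28 change ranged from −0.044 to 0.11 for WWTR1 and −0.018 to 0.12 for TEAD1, the interaction from −0.020 to 0.44 for WWTR1 and −0.16 to 0.20 for CTGF, and the difference between the lines from −0.17 to 0.36 for YAP1.

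Over all genes, calls in MeWo were 2107, of which 1082 higher, and 2480 with scaling to the spike-ins, of which 2097 higher. For SkMel28 these were 1378 (742 higher) and 927 (394 higher), for the interaction 894 (468 higher) and 1519 (1360 higher), and between the lines 6485 (3352 higher) and 5861 (3630 higher). DESeq2 gave 983 called interactions, of which 619 were higher. MeWo fitted alone gave 813 calls, and the interaction without a trend 554. With single libraries left out, calls ranged from 1281 to 3913 in MeWo, 784 to 2042 in SkMel28 and 449 to 3115 in the interaction, the highest each time without MeWo Dox replicate 1. Same-numbered libraries did not deviate together (correlations of −0.181 to 0.159). With a replicate block the members called were again 0 in MeWo, 2 in SkMel28, 3 in the interaction and 6 between the lines, with 1980, 1191, 820 and 6371 calls over all genes, and the calls of VCL (0.49) in SkMel28, of its interaction (−0.72) and of MKL1 (0.90) in MeWo were lost. Low read numbers limit AMOTL2, CRIM1 and CYR61, with 4 to 17, 2 to 7 and 4 to 18 reads per SkMel28 control library.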
